A study of Mus musculus with 12 samples.

Results

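Kinesins and tubulins are the motors and the building blocks of microtubules, and this section follows their transcripts in growing mouse oocytes with and without the RNA helicase MTR4. The genes were taken by symbol from the deposited expression table: every kinesin named Kif or Kifc with a number, and every alpha, beta, gamma and epsilon tubulin. The rule found 61 of 23235 symbols, 42 kinesin genes and 19 tubulin genes, each with a pseudogene among them (Kif4-ps and Tubb2a-ps2).

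Poly(A) RNA of oocytes from the ovaries of WT and Mtr4-null female mice was sequenced at day 14 and day 21, which the labels tie to growing germinal vesicle oocytes at the earlier age and germinal vesicle oocytes at the later. Each sample held 10 oocytes, lysed directly and amplified with the Smart-seq2 method, which primes on poly(A) tails and does not mark the strand. The labels list 12 libraries, 3 for each of the 4 groups, while the design text speaks of duplicates, and neither says how the null allele was made, on which strain, or whether the libraries of a group came from different mice. MTR4 is the helicase that feeds nuclear RNA to the exosome for decay.

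The deposited table holds 1 mean per group in FPKM, sequenced fragments normalised for gene length and for library size. The libraries' own values are not used here, so the spread between replicates and the depth behind each value are unknown, no test was possible, and every comparison is between 2 means with no error. A gene was compared when its mean over the 4 groups reached 1 FPKM, which 11913 genes did. Differences are given in log2(FPKM + 1), Mtr4-null minus WT or day 21 minus day 14, and a gene is called 2-fold apart when its difference reaches 1 on that scale, a rule of size only. That scale understates the difference of low genes, and FPKM compares shares of a library, so a lower share and less RNA per oocyte cannot be told apart.

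The groups matched their labels on the targeted gene and on cell type. Skiv2l2, the gene of MTR4, stood at 27.6 FPKM in WT and 1.57 in Mtr4-null oocytes at day 14, then 26.3 and 3.86 at day 21. All 12 oocyte markers examined were at 1 FPKM or more in every group. The summed oocyte markers ranged from 20583 FPKM in WT oocytes at day 14 to 11838 in Mtr4-null oocytes at day 21. The 12 granulosa and cumulus markers summed to 24.8 to 38.4 FPKM in the 4 groups, and the 9 theca and stroma markers to 1.26 to 1.70. Within the granulosa sum single markers differed in opposite directions. At day 21 Cyp19a1 was at 25.3 FPKM in WT and 1.48 in Mtr4-null oocytes, and Inha at 1.72 and 10.9. The endothelial and blood markers summed to 2.19 to 20.9 FPKM, nearly all of it Pecam1, with both haemoglobin genes listed at 0 in all groups. The part of these marker levels in the differences between groups was not tested. In the Mtr4-null day 21 column 0.120% of values above 0 end in the repeating decimals that a mean over 3 libraries gives, against 55.4% to 57.4% in the other columns, so that mean may rest on fewer libraries.

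Microtubules are hollow polymers of alpha and beta tubulin dimers. They are nucleated by ring complexes that contain gamma tubulin. Kinesins use ATP to walk along microtubules or to take them apart at their ends. Mouse oocytes lack centrioles and build the meiotic spindle from many microtubule-organising centres. Growing oocytes store the messages for the meiotic divisions while they are arrested in prophase, and by the end of growth transcription falls silent.

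Of the 61 genes, 42 passed the filter, 27 kinesins and 15 tubulins. The other 19 were at or near the floor of the table, and the highest value among them in any group was 1.19 FPKM, for Kif13a in Mtr4-null oocytes at day 21. Just inside the filter lay Kifc5b with a mean of 1.08 FPKM, and just outside lay Kif13a with 0.753. Tubb1, the platelet beta tubulin, was listed at 0 in all 4 groups. Tuba8, Tubb4a, Kif5a and Kif2b did not reach 1 FPKM anywhere.

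At day 14 the genotypes were close to each other. Among the 42 genes, 1 was 2-fold higher in Mtr4-null oocytes (Kif4-ps), where 8.1% of all genes compared were, and 1 was 2-fold lower (Tuba3b), where 1.55% of all genes were. Kif4-ps passed the filter only through the Mtr4-null groups, so nothing is read from the count of 1 higher. The median difference was -0.06 for the 42 genes and 0.05 for all genes.

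At day 21 they stood apart. In Mtr4-null oocytes 20 of the 42 genes were 2-fold lower, 47.6% of them, against 25.7% of all genes compared. In the other direction 3 were 2-fold higher, Kif1a, Kif16b and Kif4-ps, which is 7.14% of them against 20.2% of all genes, and Kif1a and Kif4-ps passed the filter only through the Mtr4-null groups. The median difference was -0.69 over the kinesins, -1.03 over the tubulins and -0.27 over all genes, and 32 of the 42 differences were below 0. Scaling the columns so that the median gene did not differ, by median-of-ratios scaling, left 10 genes 2-fold lower and 6 higher, against 18.1% and 24.3% of all genes. The 10 were Kif23, Kif17, Kif5c, Kif3a, Tuba3a, Tuba3b, Tuba4a, Tubb2a, Tubb6 and Tubg2. Under that scaling the medians of kinesins and tubulins still lay 0.39 and 0.71 below that of all genes (-0.39 and -0.71 against 0).

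**Figure D1:**
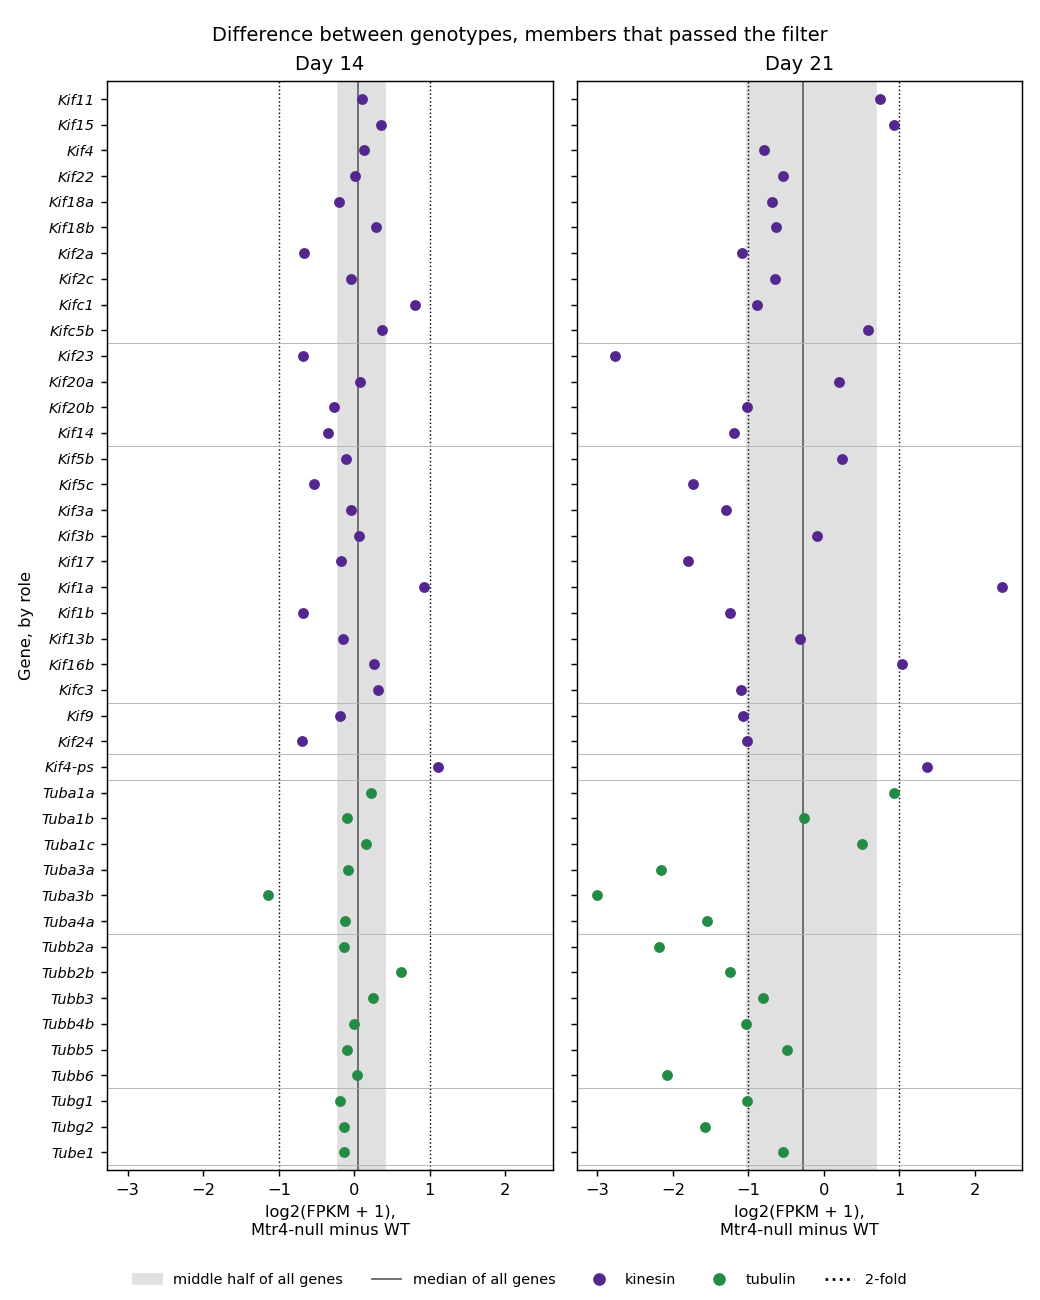
Difference between the genotypes in log2(FPKM + 1), Mtr4-null minus WT, at day 14 (left) and day 21 (right) for the 42 genes that passed the filter, ordered by role, with 1 point per gene and no error since each group has a single mean. The grey band spans the central 50 percent of all genes compared and the grey line is their median. At day 14 the points lie around 0, and at day 21 20 of them reach or pass the dotted 2-fold line on the lower side.

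Among the spindle assembly and chromosome motors few genes were 2-fold apart. Of 11 such genes 10 passed the filter, and at day 21 Kif2a alone was 2-fold lower in Mtr4-null oocytes and none was 2-fold higher, beside 25.7% and 20.2% of all genes, with a median difference of -0.64. Under median-of-ratios scaling Kif11 and Kif15 were 2-fold higher and none was lower, and with a pseudocount of 0.1 Kif15 was higher and Kif2a and Kifc1 were lower. Their summed level was 354 FPKM in WT and 353 in Mtr4-null oocytes at day 14, and 411 and 283 at day 21.

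Kif11 (Eg5) is the tetrameric motor that slides antiparallel microtubules apart to make the spindle bipolar. It was at 35.4 FPKM in WT and 37.9 in Mtr4-null oocytes at day 14, then 18.6 and 31.8 at day 21. The WT day 21 group was the low one, and the Mtr4-null value at day 21 was close to both values at day 14. Its difference at day 21 was 0.74, and 1.06 under median-of-ratios scaling. Kif15, the motor that can stand in for Kif11, was far lower, at 1.16 and 1.78 FPKM at day 14, then 0.939 and 2.70 at day 21. In both genes the WT day 21 group was the lowest, and in Kif15 the Mtr4-null day 21 group was the highest.

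The chromokinesins carry chromosome arms along spindle microtubules. Kif22 (Kid) had the highest level of the spindle motors in every group, 117 FPKM in both genotypes at day 14, 188 in WT and 129 in Mtr4-null oocytes at day 21. WT oocytes at day 21 were thus the high group. Kif4, which binds chromosomes and later the midzone, was at 61.8 and 67.9 FPKM at day 14, then 61.2 and 34.8 at day 21, where the Mtr4-null group was the low one.

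Kinesin-8 motors trim plus ends and set chromosome alignment. Kif18a stood at 36.3 FPKM in WT and 31.3 in Mtr4-null oocytes at day 14, then 36.2 and 22.1 at day 21. Kif18b was lower, at 3.71 and 4.77, then 4.60 and 2.60. In both genes the lowest value was that of Mtr4-null oocytes at day 21, with differences of -0.69 and -0.64.

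Kinesin-13 proteins do not walk but peel tubulin off microtubule ends. Kif2c (MCAK), which acts at centromeres, was at 69.1 and 67.2 FPKM at day 14, then 67.7 and 43.0 at day 21. Kif2a, which acts at spindle poles, was at 25.5 and 15.8 FPKM at day 14, then 23.0 and 10.3 at day 21. Both Mtr4-null values of Kif2a lay under both WT values, with differences of -0.66 and -1.09, and the second was -0.78 under median-of-ratios scaling. The level of Kif2c was 2.71 times that of Kif2a in WT oocytes at day 14 and 2.95 times at day 21. In Mtr4-null oocytes it was 4.26 and 4.18 times.

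Kifc1 (HSET) is the minus-end motor that focuses spindle poles, and its levels crossed. It stood at 4.09 FPKM in WT and 7.88 in Mtr4-null oocytes at day 14, then 9.70 and 4.79 at day 21. The differences were 0.80 and -0.89. Its near copy Kifc5b, with 98.1% of coding bases identical, was at 0.575 and 1.03, then 0.883 and 1.84 FPKM, so how reads were divided between these 2 genes is uncertain.

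**Figure D2:**
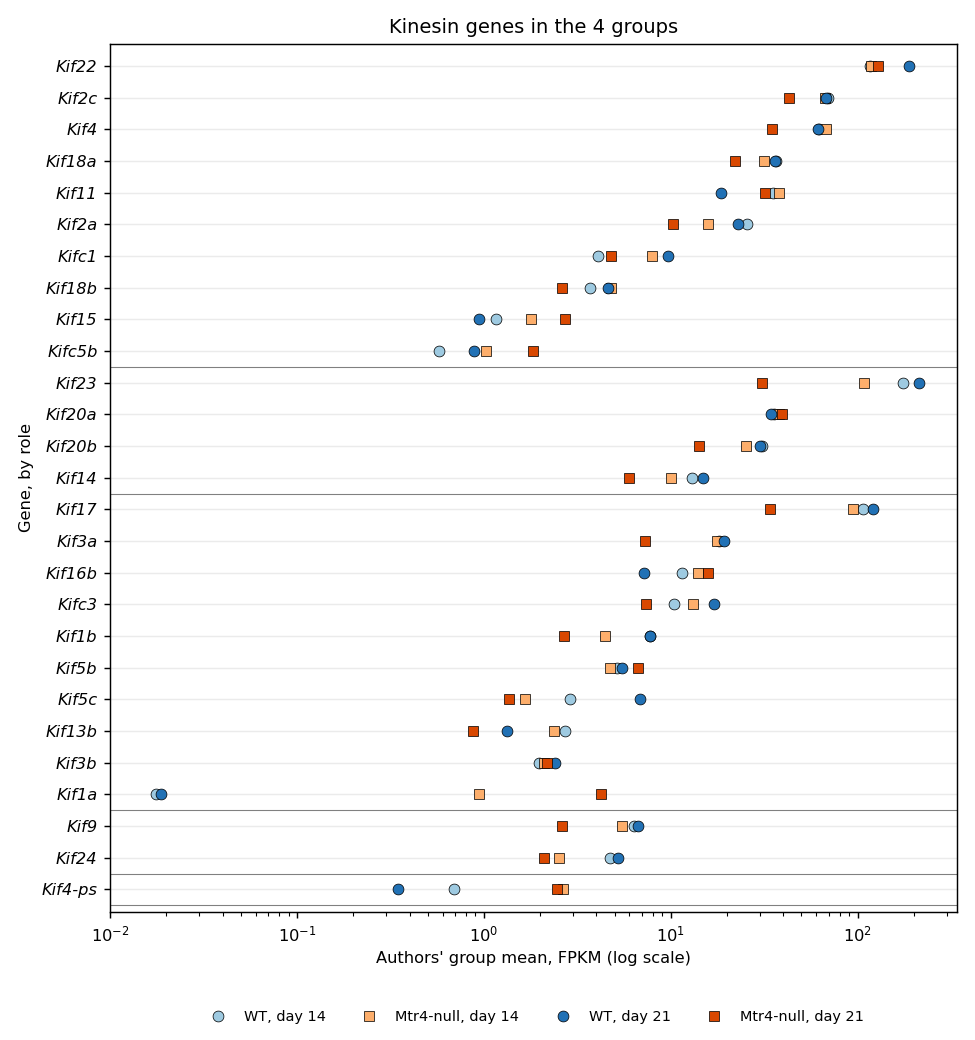
Authors' group means of the 27 kinesin genes that passed the filter, in FPKM on a log axis. Circles are WT and squares Mtr4-null oocytes, light at day 14 and dark at day 21, and lines separate spindle motors, midzone motors, transport motors, other kinesins and the pseudogene. Dark squares of Kif23 and Kif17, at 30.5 and 34.1 FPKM, stand left of their other points, while that of Kif20a, at 39.4 FPKM, does not.

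Of the midzone motors Kif23 stood furthest apart. Kif23 (MKLP1) and the GTPase-activating protein RACGAP1 form centralspindlin, which bundles the central spindle and is needed for cytokinesis. Kif23 was at 174 FPKM in WT and 108 in Mtr4-null oocytes at day 14, then 213 and 30.5 at day 21. It was high in both WT groups, the highest of all 42 kinesins at day 14 and day 21, and the Mtr4-null level at day 21 was 6.99-fold below WT. The differences were -0.69 and -2.76. Its partner Racgap1 stood at 36.7 and 33.8 FPKM at day 14, then 49.9 and 22.8 at day 21.

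Kif20a (MKLP2), a related motor that brings Aurora B to the midzone, did not follow. It was at 35.6 FPKM in WT and 37.7 in Mtr4-null oocytes at day 14, then 34.2 and 39.4 at day 21, a span of differences from 0.08 to 0.20. The ratio of Kif23 to Kif20a, which no rescaling of a whole column alters, was 4.89 in WT and 2.86 in Mtr4-null oocytes at day 14, and 6.23 and 0.775 at day 21. Kif20b (MPP1) was at 30.7 and 25.3 FPKM, then 29.8 and 14.2. Kif14, which recruits citron kinase to the midbody, was at 12.98 and 9.99 FPKM, then 14.9 and 5.94. Both were 2-fold lower at day 21, and both fell short of it under median-of-ratios scaling, at -0.71 and -0.91.

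Genes of the late cell cycle often carry a CCAAT box and a cell-cycle homology region (CHR) close to the start site, and the spindle and midzone motors were rich in these letters. Promoters of 250 bases before to 50 after the start were read from RefSeq (GRCm38.p6), where 48 of the 61 symbols had an entry, and were searched for CCAAT and for the CHR spelled TTTGAA, each also as its reverse complement. The 2 motifs were searched separately and were allowed to overlap. Of the spindle and midzone motors 11 of 14 held the CHR letters and 8 of 14 held both motifs, 78.6% and 57.1%. A match anywhere in the window counted, and the CHR letters of Kif14 lay at -228 and those of Kif2c at -103 from the start. The near copies Kifc1 and Kifc5b were counted as 2 genes in both tallies. Of the other kinesins and tubulins 5 of 34 held the CHR letters and 4 of 34 held both, 14.7% and 11.8%. Among all 27025 genes with a promoter there, 20.2% held the CHR letters and 7.97% both. The 140 bases from 120 before to 20 after the start are shown for 3 motors with both motifs and different patterns across the groups, with the motifs in capitals: Kif11 (chr19:37376262-37376401, plus strand), Kif22 (chr7:127042401-127042540, minus strand) and Kif23 (chr9:61946780-61946919, minus strand).
Kif11: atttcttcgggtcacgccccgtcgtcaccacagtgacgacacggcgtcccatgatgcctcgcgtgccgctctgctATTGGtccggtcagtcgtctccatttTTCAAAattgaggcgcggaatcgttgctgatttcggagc
Kif22: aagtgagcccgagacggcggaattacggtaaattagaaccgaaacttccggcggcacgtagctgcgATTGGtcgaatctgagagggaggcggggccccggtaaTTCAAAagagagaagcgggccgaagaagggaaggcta
Kif23: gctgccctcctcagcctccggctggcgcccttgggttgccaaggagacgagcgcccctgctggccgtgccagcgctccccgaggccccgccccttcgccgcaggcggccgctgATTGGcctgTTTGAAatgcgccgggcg
All 3 have ATTGG upstream of the CHR letters on the strand shown. Their differences at day 21 were 0.74 for Kif11, -0.55 for Kif22 and -2.76 for Kif23. A match of letters is not a bound site, and the start sites used in these oocytes were not measured.

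The transport motors carry vesicles, organelles and RNA. Of 17 such genes 10 passed the filter. At day 21 5 were 2-fold lower in Mtr4-null oocytes (Kif17, Kif5c, Kif3a, Kif1b and Kifc3), 50% beside 25.7% of all genes. Under median-of-ratios scaling Kif17, Kif5c and Kif3a stayed 2-fold lower, while Kif1b and Kifc3 fell short of the line. The 2 that were 2-fold higher, Kif1a and Kif16b, made up 20% beside 20.2% of all genes. Kif1a passed the filter only through the Mtr4-null groups. The summed level of the 17 genes was 169 FPKM in WT and 158 in Mtr4-null oocytes at day 14, and 191 and 85.7 at day 21. The kinesin-2 family gave most of that sum.

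Kif17, a kinesin-2 motor known from dendrites, cilia and the male germ line, had the highest level of the transport motors. It was at 107 FPKM in WT and 94.3 in Mtr4-null oocytes at day 14, then 121 and 34.1 at day 21. The Mtr4-null day 21 group was the low one and the other groups lay within 94.3 to 121 FPKM, a difference of -1.80. Kif3a, a motor subunit of heterotrimeric kinesin-2, had the same shape at 18.2 and 17.7 FPKM, then 19.2 and 7.23, a difference of -1.29 at day 21. Kif3b, which pairs with Kif3a in that motor, was between 1.97 and 2.40 FPKM in all 4 groups. The level of Kif3a was 9.22 and 8.45 times that of Kif3b at day 14, and 7.98 and 3.31 times at day 21.

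The conventional kinesin heavy chains, kinesin-1, split in the same way. Kif5b, the widely expressed heavy chain, was at 5.16 and 4.73 FPKM at day 14, then 5.49 and 6.66 at day 21. Kif5c, best known from neurons, was at 2.87 FPKM in WT and 1.67 in Mtr4-null oocytes at day 14, then 6.84 and 1.36 at day 21. WT oocytes at day 21 were high and the other groups low, and the day 21 difference was -1.73. No reading of Kif5a passed 0.0910 FPKM.

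The kinesin-3 motors went in both directions. Kif1b, a carrier of mitochondria and synaptic vesicle precursors, was at 7.71 and 4.44 FPKM at day 14, then 7.77 and 2.69 at day 21. Kif16b, which moves early endosomes, was at 11.4 and 13.96 FPKM, then 7.20 and 15.8, a difference of 1.04 at day 21 in which the WT day 21 group was the low one. Kif1a, the neuronal carrier of synaptic vesicle precursors, was at 0.0176 FPKM in WT and 0.935 in Mtr4-null oocytes at day 14, then 0.0187 and 4.23 at day 21. Both WT values of Kif1a were near 0 and both Mtr4-null values above them, with differences of 0.93 and 2.36. Kif13b stood at 2.73 and 2.36, then 1.33 and 0.870 FPKM. Kifc3, a minus-end motor of adherens junctions and the Golgi, was at 10.4 and 13.2 FPKM, then 16.9 and 7.40.

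Of the 9 ciliary, centriolar and other kinesins 2 passed the filter. Kif9, a kinesin of motile cilia and flagella, was at 6.33 and 5.44 FPKM at day 14, then 6.64 and 2.63 at day 21. Kif24, which restrains cilium assembly at the mother centriole, was at 4.72 and 2.53, then 5.22 and 2.09. Both were 2-fold lower at day 21, as were 25.7% of all genes. They lay just past the line at -1.07 and -1.01, and short of it at -0.82 and -0.78 under median-of-ratios scaling. The Kif4-ps transcript, from a processed pseudogene of Kif4, was at 0.694 and 2.65 FPKM, then 0.345 and 2.46, high in both Mtr4-null groups. Fragments of Kif4 and its pseudogene can be confused, and Kif4 itself had the opposite order at day 21.

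Of the tubulins that passed the filter, 9 of 15 were 2-fold lower in Mtr4-null oocytes at day 21 and none was 2-fold higher, beside 11 of 27 and 3 of 27 for the kinesins and 25.7% and 20.2% of all genes. Under median-of-ratios scaling 6 tubulins were 2-fold lower and 1 higher (Tuba1a), and 4 kinesins lower and 5 higher, beside 18.1% and 24.3% of all genes. The kinesins counted as higher include Kif1a and Kif4-ps, which passed the filter only through the Mtr4-null groups, so nothing is read from those counts. The contrast between these classes was not tested. Summed over all 19 genes, their level was 2553 FPKM in WT and 2544 in Mtr4-null oocytes at day 14, and 2793 and 1228 at day 21. The beta isotypes outweighed the alpha isotypes in every group, by 3.88 and 4.02 times at day 14 and by 4.45 and 3.84 times at day 21.

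**Figure D3:**
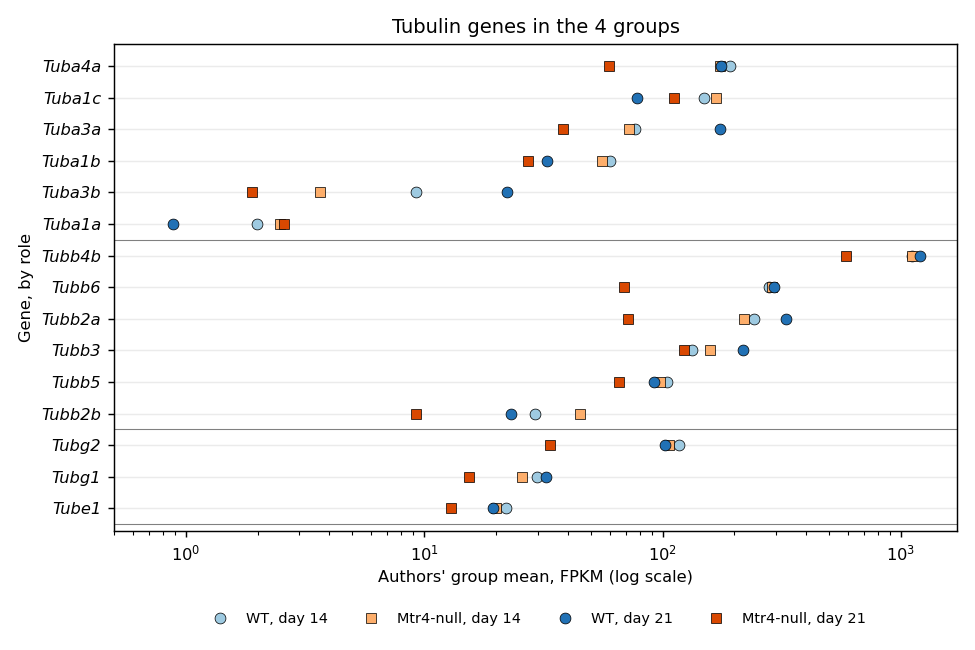
Authors' group means of the 15 tubulin genes that passed the filter, in FPKM on a log axis, with circles for WT and squares for Mtr4-null oocytes, light at day 14 and dark at day 21, and lines between alpha, beta and gamma with epsilon tubulins. Tubb4b lies furthest right, between 586 and 1202 FPKM, and the dark square is the leftmost point of most genes but not of Tuba1c or Tuba1a.

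Tubulin isotypes differ mainly in their tails, short acidic ends of the protein that project from the microtubule and carry its glutamate chains and, in most alpha isotypes, a terminal tyrosine. The last 63 coding bases, 20 codons and the stop, are shown from GENCODE vM21 transcripts for isotypes whose levels differed across the groups, with glutamate codons (GAA or GAG) in capitals.
Tuba3a: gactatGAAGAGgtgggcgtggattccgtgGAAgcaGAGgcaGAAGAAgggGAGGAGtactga
Tuba4a: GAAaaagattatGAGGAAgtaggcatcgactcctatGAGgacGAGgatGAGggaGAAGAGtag
Tubb2a: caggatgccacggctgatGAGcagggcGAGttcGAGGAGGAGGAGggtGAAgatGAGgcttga
Tubb3: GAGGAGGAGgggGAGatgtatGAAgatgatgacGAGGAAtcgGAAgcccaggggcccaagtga
Tubb4b: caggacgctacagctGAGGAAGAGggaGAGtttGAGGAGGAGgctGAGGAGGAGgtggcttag
Tuba3a ends in a tyrosine codon before the stop, tac, while Tuba4a ends in the glutamate codon gag. The counts of glutamate codons were 8 in Tuba3a, 8 in Tuba4a, 8 in Tubb2a, 8 in Tubb3 and 10 in Tubb4b. Over these 63 bases Tuba3b was identical to Tuba3a, and Tubb2b differed from Tubb2a at 3 bases.

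Among the alpha tubulins the isotypes parted at day 21. Tuba3a, an isotype known best from testis, was at 76.7 FPKM in WT and 72.4 in Mtr4-null oocytes at day 14, then 174 and 38.3 at day 21. The WT value was higher at the later age and the Mtr4-null value lower, and the day 21 difference was -2.16. Tuba3b, whose coding sequence is 97.0% identical, was at 9.22 and 3.64 FPKM, then 22.3 and 1.90, with differences of -1.14 and -3.003, the widest of all 42 genes at both ages on the lower side. How reads were shared between these near copies is uncertain, and both had the same order.

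Tuba1c, a widely expressed isotype, ran the other way. It was at 149 FPKM in WT and 167 in Mtr4-null oocytes at day 14, then 77.9 and 111 at day 21, with WT oocytes at day 21 the low group. Tuba1b, the ubiquitous isotype, was at 60.1 and 55.8 FPKM, then 32.7 and 27.2, lower at the later age in both genotypes. Its difference between the genotypes at day 21 was -0.26, and 0.06 under median-of-ratios scaling. Tuba1a stood at 1.99 and 2.49, then 0.887 and 2.58 FPKM, a day 21 difference of 0.93 that was past the 2-fold line with a pseudocount of 0.1 or median-of-ratios scaling. These 3 genes share 97.2% to 98.3% of coding bases, so their split is uncertain too. Tuba4a, which lacks the encoded tyrosine, was at 191 and 175 FPKM at day 14, then 176 and 59.8 at day 21, a difference of -1.54 with the Mtr4-null day 21 group the low one.

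As shares of the alpha sum, which are likewise free of column scaling, Tuba3a gave 15.7% in WT and 15.2% in Mtr4-null oocytes at day 14, and 36.0% and 15.9% at day 21. Tuba1c gave 30.6% and 35.1% at day 14, then 16.1% and 46.2%. Tuba4a gave 39.2% and 36.7%, then 36.4% and 24.8%. The ratio of Tuba3a to Tuba1c was 0.513 and 0.433 at day 14, and 2.24 in WT and 0.344 in Mtr4-null oocytes at day 21. In make-up, then, Mtr4-null oocytes at day 21 had a Tuba3a share near that of both groups at day 14.

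**Figure D4:**
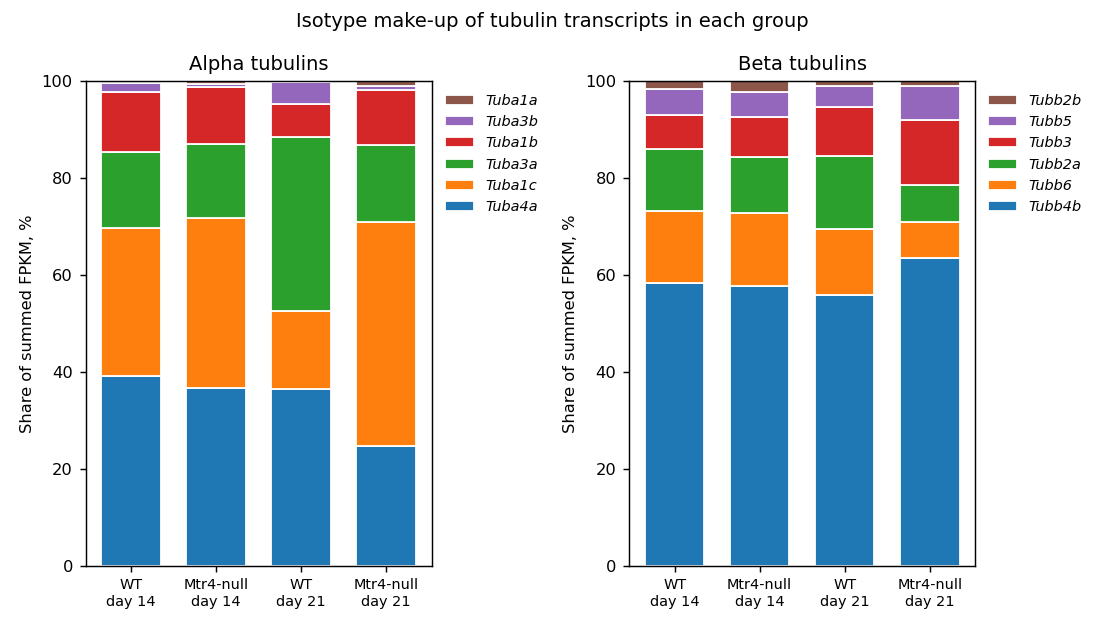
Share of each isotype in the summed FPKM of alpha tubulins (left) and beta tubulins (right), in percent, with 1 bar for each group mean. Tuba3a takes 36.0% of the alpha sum in WT oocytes at day 21 and 15.2% to 15.9% in the other groups, and Tubb4b takes 55.8% to 63.4% of the beta sum.

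Tubb4b, a beta tubulin found in most tissues and in cilia, was the main isotype everywhere. It was at 1108 FPKM in WT and 1107 in Mtr4-null oocytes at day 14, then 1202 and 586 at day 21. Its difference at day 21 was -1.03, or -0.71 under median-of-ratios scaling, and it gave 58.4%, 57.8%, 55.8% and 63.4% of the beta sum in that order of groups.

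At day 21 Tubb6 and Tubb2a differed most between the genotypes among the beta isotypes. Tubb6 was at 280.2 FPKM in WT and 288 in Mtr4-null oocytes at day 14, then 293 and 68.8 at day 21, a difference of -2.08. Tubb2a was at 242 and 219.7 FPKM, then 328 and 71.5, a difference of -2.18. In both, the Mtr4-null day 21 group was low and the other groups were at 219.7 FPKM or more. Their shares of the beta sum at day 21 were 13.6% for Tubb6 and 15.2% for Tubb2a in WT oocytes, against 7.44% and 7.74% in Mtr4-null oocytes.

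Tubb5 and Tubb3 differed less. Tubb5, a widely expressed isotype, was at 104 and 97.4 FPKM at day 14, then 92.2 and 65.4 at day 21, a difference of -0.49. Tubb3, the neuronal isotype, was at 133 and 158 FPKM, then 217 and 123, a difference of -0.81. Its share of the beta sum was 10.1% in WT and 13.3% in Mtr4-null oocytes at day 21. The ratio of Tubb2a to Tubb5 was 2.32 and 2.26 at day 14, then 3.55 in WT and 1.09 in Mtr4-null oocytes at day 21. Tubb2b, a near copy of Tubb2a with 96.5% of coding bases identical, was at 29.2 and 45.2 FPKM, then 23.1 and 9.21.

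Gamma tubulin seeds microtubules, and mice have 2 genes for it. Tubg2 was at 117 FPKM in WT and 106 in Mtr4-null oocytes at day 14, then 102 and 33.6 at day 21. Tubg1, the form found in all cells, was at 29.6 and 25.8 FPKM, then 32.3 and 15.5. Tubg2 was above Tubg1 in every group, by 3.94 and 4.11 times at day 14 and by 3.17 and 2.17 times at day 21. The differences at day 21 were -1.58 for Tubg2 and -1.01 for Tubg1, and the second was -0.71 under median-of-ratios scaling. Tube1, the epsilon tubulin of centrioles, was at 22.0 and 19.9, then 19.4 and 12.97 FPKM.

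Between the ages, most levels in WT oocytes were within 2-fold. From day 14 to day 21, 4 of the 42 genes were 2-fold higher in WT oocytes, Kifc1, Kif5c, Tuba3a and Tuba3b, against 2.02% of all genes, and none was 2-fold lower, against 3.32% of all genes. The median difference was 0.03 for the 42 genes and the range ran from -0.93 for Tuba1c to 1.19 for Tuba3b. Kif11, Tuba1c and Tuba1b were the genes with the lowest values, at -0.89, -0.93 and -0.86.

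In Mtr4-null oocytes 9 of the 42 genes were 2-fold lower at day 21 than at day 14, against 18.6% of all genes. Under median-of-ratios scaling this was 7 genes against 8.76% of all genes, and under quantile normalization 8 against 12.8%. The 9 genes were Kif23, Kif17, Kif3a, Tuba1b, Tuba4a, Tubb2a, Tubb2b, Tubb6 and Tubg2. Kif1a was the 1 gene 2-fold higher, where 9.08% of all genes were, and it passed the filter through the Mtr4-null day 21 group in which it was high, so nothing is read from that count. The lowest difference was that of Tubb2b at -2.18, from 45.2 to 9.21 FPKM, followed by Tubb6 at -2.05. The 4 genes that were 2-fold higher with age in WT oocytes were not higher with age in Mtr4-null oocytes. With WT first, the ratio of day 21 to day 14 was 2.38 and 0.607 for Kifc1 and 2.38 and 0.816 for Kif5c. It was 2.27 and 0.529 for Tuba3a and 2.42 and 0.523 for Tuba3b. In Mtr4-null oocytes 33 of the 42 genes were lower with age, and the median over all genes was -0.30. The share of all genes that were higher with age in WT but not in Mtr4-null oocytes was not computed. Nothing particular to these 4 genes is therefore read from their values. Kifc1 and Kif5c were under 10 FPKM in every group.

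Over the 42 genes the age differences of WT and of Mtr4-null oocytes, which share no group, had a Pearson correlation of -0.02 and a Spearman correlation of -0.03, and over all 11913 genes the Pearson value was -0.04. The genotype differences at day 14 and day 21, which also share no group, had values of 0.66 and 0.58 over the 42 genes and 0.65 and 0.69 over all genes. These are descriptions across genes of the same libraries, and genes are not independent replicates. Exon overlap bears on some members: 14 of the 42 share exonic bases with another gene, 12 of them with a gene on the opposite strand, among them Kif4, Kif22, Kif18a, Kif2a and Kif20a, and without strand such fragments cannot be told apart.

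The other genes of the microtubule system were taken as 163 genes in 8 lists. Of these 139 passed the filter, and at day 21 49 were 2-fold lower and 9 higher in Mtr4-null oocytes, 35.3% and 6.47% beside 25.7% and 20.2% of all genes. At day 14 2 were 2-fold higher, Actr10 and Ttll13, and none was 2-fold lower, 1.44% and 0% beside 8.1% and 1.55% of all genes. By list at day 21, 6 of 15 gamma-tubulin ring and augmin genes, 10 of 21 spindle pole and assembly factors, and 3 of 12 passenger, kinetochore motor and midzone genes were 2-fold lower. So were 12 of 22 microtubule-binding and severing proteins, 7 of 15 tubulin-modifying enzymes, 5 of 20 folding factors, 5 of 24 dynein and dynactin genes and 1 of 10 kinesin light chains and adaptors. In the passenger and midzone, folding, dynein and kinesin adaptor lists these shares did not exceed the 25.7% of all genes.

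Plk1, the kinase of spindle pole maturation, was at 116 and 108 FPKM at day 14, then 135 and 24.3 at day 21. Haus3, an augmin subunit that makes microtubules branch, was at 261 and 183 FPKM, then 317 and 81.5. Camsap3, which caps minus ends, was at 18.6 and 15.1, then 26.8 and 2.69. In Plk1, Haus3 and Camsap3 the Mtr4-null day 21 group was again the low one. Augmin did not move as 1 set. Haus2, another of its subunits, was at 4.79 and 8.06 FPKM at day 14, then 2.99 and 15.8 at day 21, a difference of 2.07. It was the 1 gene 2-fold higher at day 21 in the gamma-tubulin ring and augmin list, where 6 were lower.

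A few partners ran the other way. Actr10, a dynactin pointed-end subunit, was at 22.5 FPKM in WT and 62.5 in Mtr4-null oocytes at day 14, then 23.1 and 524 at day 21. Of the CCT chaperonin that folds tubulin, Cct4 was at 136 and 178 FPKM, then 65.2 and 203, and Cct6a at 40.9 and 65.9, then 12.9 and 86.1. Cct5 and Tcp1 of the same complex were at 332 and 248, then 367 and 111, and at 145 and 125, then 117 and 44.3. Subunits of this chaperonin thus stood on both sides at day 21.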

How the data were processed

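The deposited table gives FPKM, 1 column per group, each taken as a mean the authors made over libraries of that group. The Mtr4-null day 21 column may rest on fewer libraries than the labels list. Build mm9, Cufflinks 2.2.1 and TopHat2 2.1.1 are named, per the submitters' processing notes, without their roles. Depth per library is unknown, and no count, replicate or error was used. From the table, log2(FPKM + 1) differences between group means were computed for genes with a mean of at least 1 FPKM over the 4 groups, and genes past a 2-fold difference were counted (Python 3.11.15, pandas 2.3.3, NumPy 2.4.6). The script was checked on known differences put without noise into copies of the WT day 14 values, which checks the arithmetic only. Values in all groups are printed for genes with at least 10 FPKM in any group, and for genes with at least 5 FPKM in the higher group that were 2-fold apart between genotypes; this rule named 32 genes, and the other 10 that passed the filter were added after their values were seen. The genes, lists and comparisons were chosen with earlier results of these data known. Alternatives were a pseudocount of 0.1, no filter, a minimum mean of 5 FPKM, median-of-ratios scaling and quantile normalization. Promoters are from RefSeq (GRCm38.p6), and coding ends, exon overlaps and coding identities from GENCODE vM21 (GRCm38). Protein sequences were not used here, and some coding ends are not reported here.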

Additional observations from a re-analysis of the deposited data

How the results depend on the processing

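No paired analysis was possible because the columns are group means that carry no replicate number, and for the same reason no replicate could be left out. With a pseudocount of 0.1, 2 genes were 2-fold higher in Mtr4-null oocytes at day 14 and 5 at day 21, and 1 was 2-fold lower with age in WT oocytes. With a minimum mean of 5 FPKM, which keeps 32 genes, 0 were 2-fold higher at day 14, 1 at day 21 and 0 with age in Mtr4-null oocytes, fewer genes being compared. Under median-of-ratios scaling the all-gene median at day 21 went from -0.27 to 0, with 6 genes 2-fold higher and 10 lower. Quantile normalization gave 0 genes 2-fold higher at day 14 and 17 lower at day 21. The cause of these differences was otherwise not tested. Without a filter each of the 8 counts was as reported, while the share of all genes 2-fold lower at day 21 went from 25.7% to 13.7%, and the day 21 medians to -0.15 for kinesins, -0.81 for tubulins and 0 for all genes, with many genes at or near 0 FPKM included. Of the 128 differences of the 32 genes named by rule, median-of-ratios scaling took 12 below the 2-fold line and 1 past it, quantile normalization 5 below and 1 past, the pseudocount of 0.1 took 1 past it, and none that was 2-fold apart changed sign under the 5 alternatives. Unknown depth leaves the low genes, such as Kif1a and Kifc5b, with unknown precision.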

Other observations

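Gene length and exon number were set beside the day 21 difference between genotypes as values. Over all genes with an annotation, 11739 of them, the Spearman correlation with exon number was -0.30 and with exonic length -0.16. Over the 42 kinesin and tubulin genes it was 0.10 and 0.28. These 42 pool 2 classes of unlike length. Over the 27 kinesins alone, with a median of 22 exons against 14.5 for the 42, it was -0.06 and 0.05. These are descriptions across genes that share the same libraries.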
